A study of Mus musculus with 2 samples.

Results

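Clusters of reads just downstream of the annotated end of a gene were examined in the NPA RNA (RNA without a poly(A) tail) of mouse embryonic stem cells (ESCs) and of neuronal progenitor cells (NPCs) derived from them. Reads of both libraries were pooled and joined into clusters wherever those of 1 strand shared a base. The clusters described here were chosen by 4 criteria, namely at least 10 pooled reads, no overlap with a GENCODE M1 gene body on either strand, a start within 5000 nt beyond the 3′ end of a protein-coding gene, and the strand of that gene. Of the 96817 clusters with at least 10 reads, 4854 overlapped no gene and 1421 met all criteria, which is 1.47% of all clusters and 29.3% of those outside genes. They lay beyond 460 genes, here called host genes, or 2.06% of the 22367 protein-coding genes. Since pooled reads chose the clusters, their presence and pooled level are descriptions and not findings.

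The ESCs were of the male line R1, at passage 18, grown with leukemia inhibitory factor on a feeder layer of embryonic fibroblasts treated with Mitomycin C. The NPCs were made from the same line, as embryoid bodies without the factor for 4 days and then on fibronectin, and were gathered on day 7. Each cell type gave 1 strand-specific library, made after removal of poly(A) RNA and ribosomal RNA. No replicate check is therefore possible, no test between cell types was made, and every ratio compares these libraries. In bulk RNA, fewer cells of a type and less RNA per cell cannot be told apart.

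The 3′ end of most mRNAs is made by cleavage of the nascent transcript, followed by addition of the poly(A) tail. The cleavage complex recognises a hexamer, usually AATAAA or its variant ATTAAA, a short way upstream of the cleavage site. RNA polymerase II transcribes on past this site before it terminates, so that short-lived RNA without a poly(A) tail is made downstream of genes. Many genes also have several alternative poly(A) sites, and the farthest of them may be missing from an annotation. Replication-dependent histone genes differ in that their mRNAs end in a stem-loop and carry no poly(A) tail.

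Sequences are given for 6 host genes, picked after their values were seen because each had a hexamer soon after its farthest cluster. Of 28 single-copy hosts with many reads that were searched, 13 had none there, and some of these, among them *Tomm20*, *Eif2c2*, *Ppp1r12a* and *Klhl11*, had a hexamer in the last 30 nt of the gene. For each, the first line holds the last 30 nt of the annotated gene, and the second holds 30 nt around the first AATAAA or ATTAAA within 200 nt after the farthest cluster, both from mm9, 5′ to 3′ on the strand of the gene. Capitals mark the hexamer, and none of the 6 gene ends holds one in these 30 nt.
Trim71, last 30 nt of the gene, chr9:114420393-114420422, minus strand: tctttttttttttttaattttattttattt
Trim71, after the farthest cluster, chr9:114416260-114416289, minus strand: tttgtttaatcaAATAAAcagagggttgtc
Klf5, last 30 nt of the gene, chr14:99712595-99712624, plus strand: tgccatcctttaaaccgcagacctaacttc
Klf5, after the farthest cluster, chr14:99714221-99714250, plus strand: tttttttttgaaAATAAAaagtgcctaaaa
Cct6a, last 30 nt of the gene, chr5:130321667-130321696, plus strand: cgagctgggatgtcctctctgaagggttga
Cct6a, after the farthest cluster, chr5:130322272-130322301, plus strand: ttcagaaaagctAATAAAgccaagttactc
Ccdc85c, last 30 nt of the gene, chr12:109444555-109444584, minus strand: tctggtaatcagttcaaggggccattgtag
Ccdc85c, after the farthest cluster, chr12:109441818-109441847, minus strand: tttgaactagatAATAAAggcctctttgtg
Soat1, last 30 nt of the gene, chr1:158358239-158358268, minus strand: tcgggttagactttattagaacactaagac
Soat1, after the farthest cluster, chr1:158354664-158354693, minus strand: aagaatgtgataAATAAAtatatttagaaa
Enah, last 30 nt of the gene, chr1:183834576-183834605, minus strand: ggtagggagtgtctgctgttacaccctgag
Enah, after the farthest cluster, chr1:183832696-183832725, minus strand: tgtaatttgcatATTAAAggatattgccaa

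The files held 4271306 reads for ESCs and 4399729 for NPCs, and 1 read is worth 0.234 RPM (reads scaled to the library total) in ESCs and 0.227 RPM in NPCs. Over exons, 12 of the 20 pluripotency genes with a gene model were more than 2-fold higher in ESCs and 1 was more than 2-fold higher in NPCs, against 11.6% and 26.2% of all 12711 protein-coding genes with at least 10 exon reads, and their summed level was 3306 RPM in ESCs and 1485 in NPCs. The neural progenitor list held 310.2 RPM in ESCs and 346.6 in NPCs, and of its 9 genes with at least 10 exon reads 3 were more than 2-fold higher in NPCs and 1 in ESCs. Of the 18 extraembryonic endoderm gene models with at least 10 exon reads, 16 were more than 2-fold higher in NPCs, and the summed level of the list was 1288 RPM in ESCs and 18623 RPM in NPCs. The part that such other cells had in the ratios below was not tested. No host gene belonged to the neural, endoderm or fibroblast lists.

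More clusters began close to the annotated end of their host than far from it. The median distance from the last base of the gene to the start of the cluster was 1021 nt, with quartiles of 409 and 2259 nt, and 424 clusters (29.8%) began within 500 nt. Counted over all genes, 109 clusters began in the first 100 nt, 54.8 per 100 nt began between 501 and 1000 nt, and 8.8 per 100 nt in the last 1000 nt of the window. A cluster that reached back into the gene was not counted, so a run of reads that crosses the annotated end without a break is missing from the first bins. The opposite strand of the same windows held 373 clusters, of which 35 (9.38%) began within 500 nt. Upstream of 5′ ends, the same width held 284 clusters on the strand of the gene, with 30 (10.6%) within 500 nt, and 157 on the opposite strand, with 16 (10.2%) within 500 nt. In these 3 comparison sets every bin held between 0 and 10 clusters per 100 nt.

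**Figure D1:**
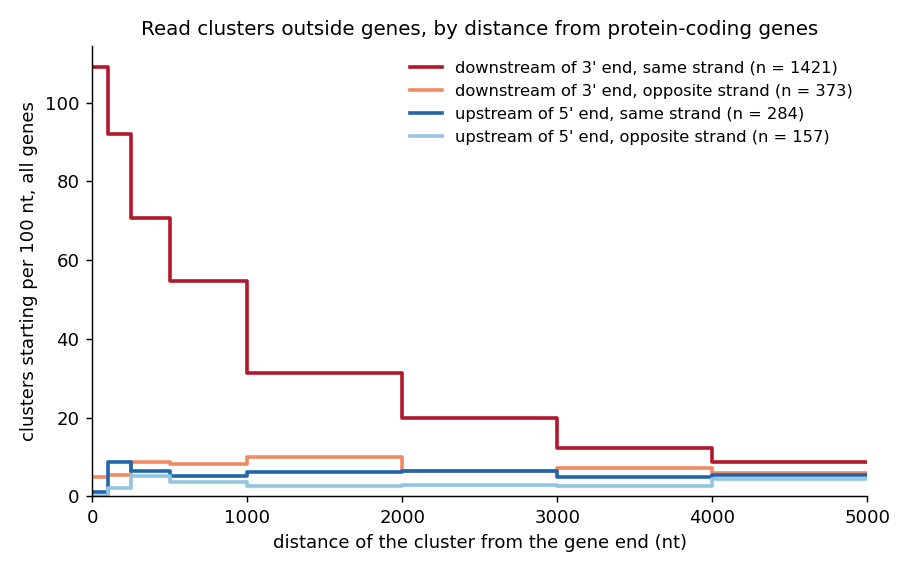
Number of clusters with at least 10 pooled reads outside genes that start per 100 nt (y axis), against distance in nt from the nearest end of a protein-coding gene (x axis), for the 1421 downstream clusters and 3 comparison sets. The downstream same-strand line falls from 109 clusters per 100 nt next to the gene to 8.8 in the last 1000 nt, while the other lines stay at or below 10.

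Most of the clusters were small. The median cluster had 18 reads and was 132 nt long, 772 clusters had 10 to 19 reads, and 68 had at least 100. Just inside the threshold, 140 clusters had 10 reads, and 186 clusters with 9 reads met the other criteria. At the far edge, 88 clusters began in the last 1000 nt of the window, the farthest at 4996 nt, and 65 began in the 1000 nt beyond it. The strand was nearly pure, since 1367 clusters (96.2%) had no read on the opposite strand. Another gene lay between the host and the cluster in 40 cases, and 117 clusters also lay within 5000 nt upstream of a same-strand protein-coding gene, so for these the assignment to the host is uncertain.

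The annotated ends of the hosts were set beside those of all protein-coding genes, as shares with no test. At least 1 hexamer was present in the last 50 nt of 167 of the 460 hosts (36.3%), against 14903 of all 22367 protein-coding genes (66.6%), and the mean GC content of these windows was 37.7% and 34.6%. The coding sequence ran to the last base of the gene model, with no annotated 3′ UTR, in 88 hosts (19.1%) and in 2507 of all protein-coding genes (11.2%). The share was 12.8% of 352 hosts with only single-copy clusters and 41.2% of 85 with only multi-copy clusters, as defined below. Among genes with at least 100 exon reads, the shares without a 3′ UTR were 10.99% of 355 hosts and 1.99% of 7979 genes. *Cct6a*, *Hnrnpa1*, *Ipo7* and *Ccdc85c* were such hosts. At least 1 read lay across the annotated end in 142 of the 355 hosts (40%) and in 9.76% of the 7979 genes, a measure that is not independent of the choice, as both count reads beyond the end.

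Hexamers were also counted beyond the clusters. In the 200 nt after the farthest single-copy cluster of each host, AATAAA or ATTAAA on the strand of the gene was found in 154 of 375 windows (41.1%). After the other 849 single-copy clusters the share was 17.8%, and after the 3433 other clusters outside genes it was 24.4%. The mean GC content of the 3 kinds of window was 41.1%, 42.2% and 44.4%. Single-copy here means that at least 50% of the reads of the cluster had a 48-nt sequence that occurs once in mm9. The last 50 nt of the clusters themselves held a hexamer in 4.43%, against 4.05% for other clusters outside genes. Among 28 of the single-copy hosts with the most reads, 15 had a hexamer within 200 nt of the far end, and at 11 of the 15 no more than 4 reads lay in the next 1000 nt. No hexamer was found in that window at *Purb*, *Eif4ebp2*, *Ipo7*, *Acvr2b* and *Tomm20*, where 35, 1, 6, 87 and 6 reads lay in the next 1000 nt. Clusters had to start within 5000 nt, and those of *Purb* and *Acvr2b* reached 4736 and 5324 nt. *Lnpep*, also without a hexamer there, reached 4988 nt, with 71 reads in the next 1000 nt. At such hosts the limit may cut the run of reads, so the window does not show how the run ends. The farthest cluster was defined by its reads, so a fall in reads beyond it is partly fixed by the choice. A hexamer is a match of letters and not a mapped cleavage site, and the 200-nt windows were chosen after the data were seen.

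*Trim71*, which encodes an RNA-binding ubiquitin ligase of stem cells and a target of let-7, had the most single-copy reads apart from *Gm10925*. Its 12 clusters began 29 nt beyond the annotated end and reached to 4105 nt, and reads covered 92.6% of that stretch. They held 779 reads in ESCs and 1098 in NPCs, against 828 and 1082 over the exons of the gene. The largest cluster, of 1121 nt at chr9:114416881-114418001, held 230 reads in ESCs and 264 in NPCs at 198 start positions. No read crossed the annotated end, but only 28 nt separated it from the first cluster. The hexamer printed above lies 4116 nt beyond the annotated end, and 1 read was found in the 1000 nt after the last cluster. The downstream NPC to ESC ratio was 1.37 (95% interval 1.247 to 1.502, counting error only) and the exon ratio 1.27 (1.16 to 1.39). The downstream ratio was thus 1.08 times that of the exons (0.95 to 1.23). The log2 ratios were 0.45 and 0.34, beside medians of 0.43 over all clusters and 0.40 over exons of all protein-coding genes.

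*Klf5*, a transcription factor that supports self-renewal of ESCs, had an annotated 3′ UTR of 76 nt in this release. Its 5 clusters reached from 47 to 1580 nt beyond the end, with 245 reads in ESCs and 453 in NPCs, against 335 and 425 over exons. The cluster at 880 nt was the largest, with 121 reads in ESCs and 242 in NPCs. In the cluster at 1336 nt, 72.6% of the 106 reads shared a start position. Reads then stopped, with 3 in the 1000 nt beyond 1580 nt, and the hexamer lies 1609 nt from the annotated end. The downstream ratio of 1.80 (1.53 to 2.11) exceeded the exon ratio of 1.23 (1.07 to 1.43), and their quotient was 1.46 (1.17 to 1.81).

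*Purb*, which encodes a protein that binds purine-rich single strands, had 17 clusters from 37 to 4736 nt beyond its end. They held 111 reads in ESCs and 593 in NPCs, while the exons held 13 and 46. Reads in these clusters were thus 11.9 times as many as those over exons, and per kb of cluster 4.12 times as dense. Over the whole stretch, gaps included, reads were 2.94 times as dense as over exons. NPCs were 5.19-fold higher downstream (4.23 to 6.41) and 3.44-fold higher over exons (1.83 to 6.93). *Acvr2b*, an activin receptor gene, had a similar shape, with 17 clusters reaching 5324 nt, 227 and 271 downstream reads in ESCs and NPCs, and 57 and 64 exon reads. *Ccdc85c*, whose gene model ends at the stop codon, had 14 clusters up to 2684 nt with 259 reads in ESCs and 352 in NPCs, against 42 and 40 over exons. For these 3 genes the annotated exons held the minority of the reads of the locus.

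*Enah* encodes a regulator of actin filaments. Its 6 clusters ran from 65 to 1781 nt beyond the gene, covered 91.7% of that stretch, and held 362 reads in ESCs and 285 in NPCs, against 626 and 534 over exons. *Mdm4*, an inhibitor of p53, had 11 clusters up to 3618 nt with 543 reads in ESCs and 233 in NPCs, and its exons held 598 and 287. Both loci were higher in ESCs, by 1.31-fold (1.12 to 1.53) downstream of *Enah* and by 2.40-fold (2.05 to 2.81) downstream of *Mdm4*. *Eif4ebp2*, a repressor of translation initiation, had 12 clusters up to 3991 nt with 269 reads in ESCs and 376 in NPCs, against 158 and 207 over exons. For *Enah*, *Mdm4* and *Eif4ebp2* the interval of the quotient of downstream and exon ratios included 1, with quotients of 0.92, 0.89 and 1.07. The cluster nearest to *Mdm4* was 2 nt long and consisted of 15 reads whose deposited interval was shorter than 48 nt, here called clipped. *Lnpep*, a membrane aminopeptidase gene, had the most clusters of any host, 20, with 195 reads in ESCs and 222 in NPCs.

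**Figure D2:**
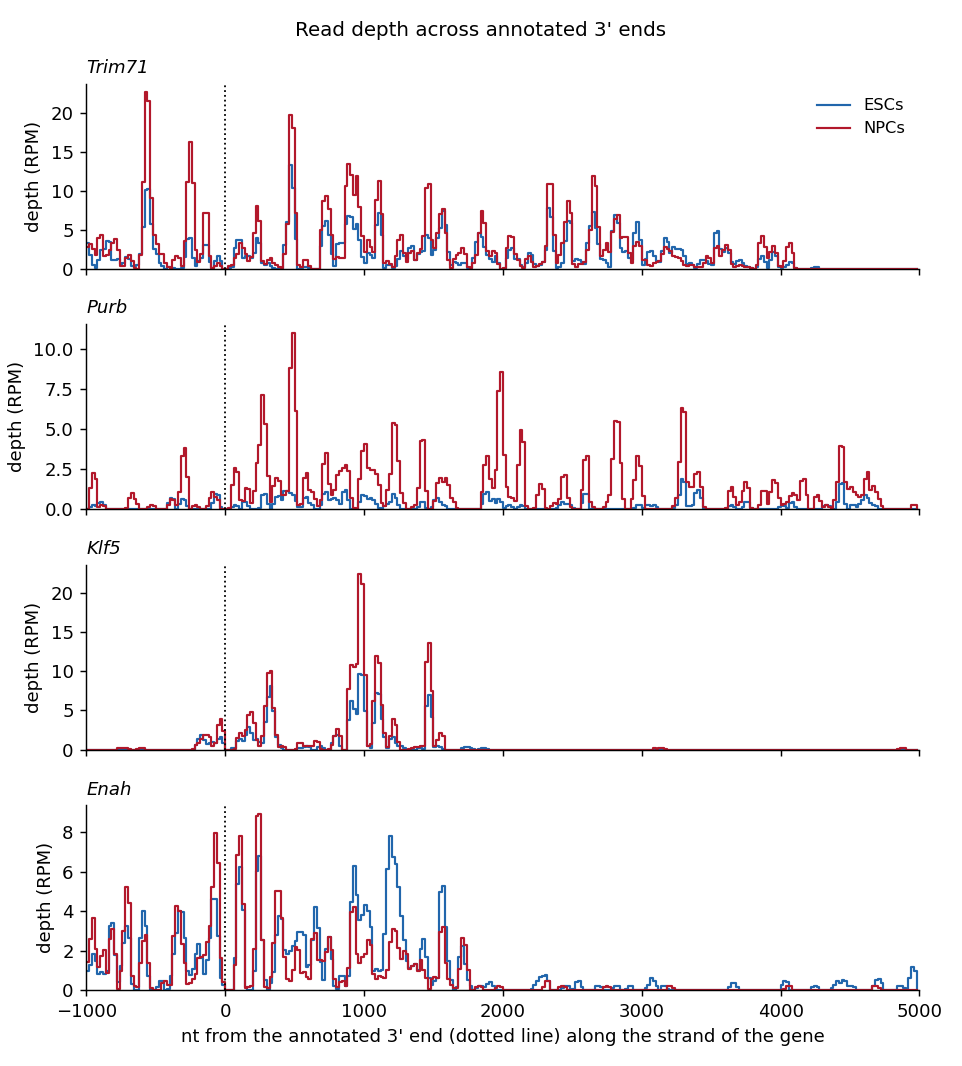
Mean read depth in 20-nt bins in RPM (y axis) from 1000 nt before to 5000 nt after the annotated 3′ end (x axis, dotted line) of *Trim71*, *Purb*, *Klf5* and *Enah*, on the strand of the gene, with ESCs and NPCs as separate lines. The farthest clusters end at 4105, 4736, 1580 and 1781 nt, and beyond *Purb* the NPC line is the higher in each of the 17 clusters.

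Within 500 nt of the gene, the clusters with the most reads belonged to *Cct6a*, *Gm10222*, *Hnrnpa1* and *Fem1c*. *Cct6a*, a subunit of the cytosolic chaperonin, had 3 clusters, at 82, 158 and 411 nt. The cluster at 158 nt, chr5:130321854-130322003, held 188 reads in ESCs and 369 in NPCs, and that at 411 nt held 93 and 153, of which 54.9% shared a start. Downstream reads were 1.77-fold higher in NPCs (1.53 to 2.04), while exon reads, 1137 and 1015, were not, with a ratio of 0.87 (0.80 to 0.94). *Hnrnpa1*, a splicing regulator, had a cluster at 240 nt with 156 reads in ESCs and 183 in NPCs, but none of its reads had a sequence found once in mm9, so its reads cannot be told from those of other copies. *Fem1c*, a substrate receptor of a ubiquitin ligase, had a cluster at 300 nt with 108 reads in ESCs and 119 in NPCs.

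Between the cell types, the clusters held 21771 reads in ESCs, or 0.510% of the library (exact interval 0.503 to 0.517%), and 28984 in NPCs, or 0.659% (0.651 to 0.666%). When each start position was counted once per library 851 clusters had at least 10 reads, with shares of 0.556% and 0.559%. Of these, 119 were more than 2-fold higher in NPCs (13.98%, against 11.6% of all clusters counted this way) and 94 in ESCs (11.05%, against 8.48%). The log2 ratio of NPCs over ESCs had a median of 0.44, with quartiles of -0.34 and 1.28, and that of all 96817 clusters was 0.43. With libraries scaled by the median of ratios in place of totals, the medians were 0.19 and 0.17. More than 2-fold higher in NPCs were 441 clusters (31.03%), against a background of 29.3% of all clusters, and 166 (11.7%) were more than 2-fold higher in ESCs, against 10.7%. Both shares were near those of all clusters. In 34 clusters ESCs had 0 reads, and in 3 NPCs had 0 reads, where a count of 0 allows up to 3 reads. How many of all 96817 clusters had 0 reads in a library was not counted, so these counts show no trait of downstream clusters.

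**Figure D3:**
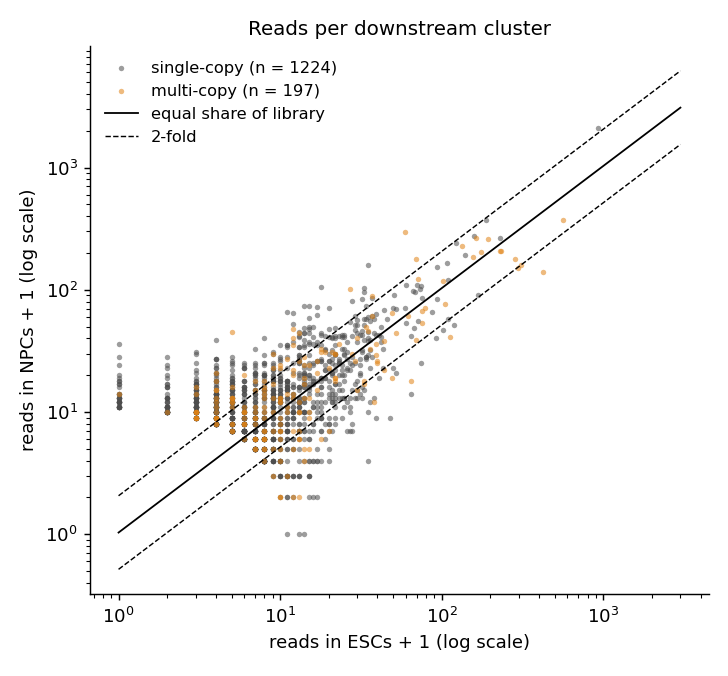
Reads in NPCs plus 1 (y axis) against reads in ESCs plus 1 (x axis), both on log scales, for each of the 1224 single-copy and 197 multi-copy downstream clusters. The solid line marks an equal share of both libraries and the dashed lines 2-fold, beyond which lie 441 clusters towards NPCs and 166 towards ESCs.

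Among clusters with at least 50 reads in a library, those with the highest NPC to ESC ratio lay beyond *Purb*, *Tmf1* and *Gm10222*. The 3 *Purb* clusters, at 1846, 194 and 965 nt, held 10, 17 and 13 reads in ESCs and 65, 105 and 73 in NPCs. *Tmf1*, a Golgi-associated coiled-coil protein, had 1 cluster at 557 nt with 11 reads in ESCs and 63 in NPCs, and its exons held 136 and 266. In this cluster 41.9% of the reads shared a start position. Clusters here were ranked by the ratio itself and could pass the threshold of 50 reads through 1 library alone. High ratios in either direction are thus set by the choice. The highest ratios towards ESCs lay beyond *Pgpep1*, *Gm3776*, *Ogdhl* and *Gm17624*. *Pgpep1*, a peptidase gene, held 64 reads in ESCs and 13 in NPCs at 817 nt, and over its 6 clusters 147 and 36. *Ogdhl*, which encodes a relative of a Krebs cycle enzyme, held 73 and 24 reads at 49 nt, and its exons held 700 and 286.

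The ratios of the clusters were compared with those of the exons of their hosts. Of the 283 hosts with at least 20 reads both downstream and over exons, 227 had log2 ratios that differed by no more than 1, while 25 were further towards NPCs downstream and 31 further towards ESCs. Across these hosts, which share the libraries and are not replicates, Pearson's r was 0.71 and Spearman's rho 0.66. The median difference between downstream and exon log2 ratios was -0.02. Over all hosts, 78 were more than 2-fold apart in the same direction downstream and over exons, 59 towards NPCs and 19 towards ESCs, and 10 in opposite directions. Over exons of all protein-coding genes with at least 10 reads, 26.2% were more than 2-fold apart towards NPCs and 11.6% towards ESCs. For 73 of the 283 hosts the interval of the quotient excluded 1, with 35 above and 38 below, in terms of counting error only.

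**Figure D4:**
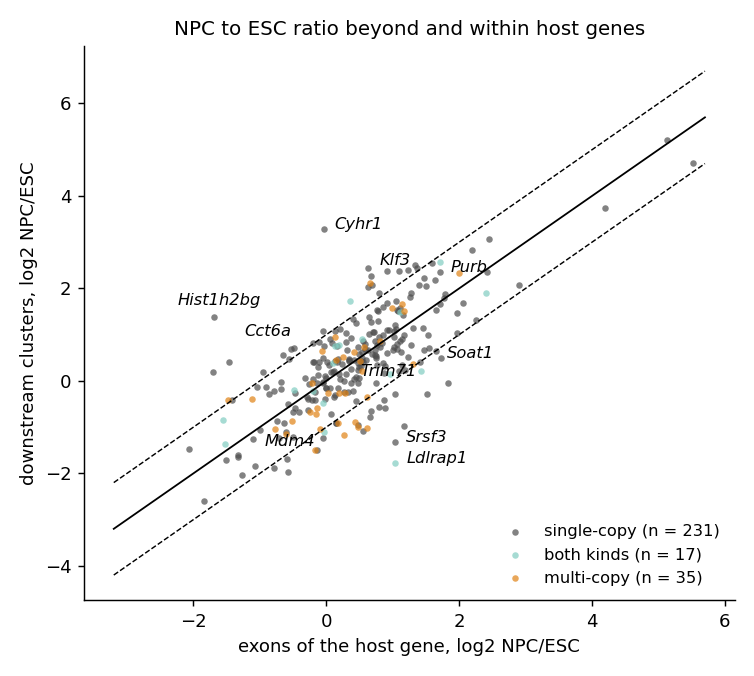
Log2 NPC to ESC ratio of the summed downstream clusters (y axis) against that of the exons (x axis) for the 283 host genes with at least 20 reads in both, coloured by whether the clusters are single-copy, multi-copy or both. The solid line marks equality and the dashed lines a difference of 1, within which 227 hosts lie.

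Some hosts had far fewer reads in 1 cell type than in the other, both downstream and over exons. *Cdh6*, a cadherin, had 0 reads in ESCs downstream and over exons, and 37 and 35 in NPCs. *Hs3st1*, a heparan sulfate sulfotransferase, had 0 reads in ESCs and 26 in NPCs downstream, and 10 and 521 over exons. *Mbnl3*, a splicing regulator, had 3 and 54 downstream and 13 and 264 over exons. *Gpc4*, a glypican, had 36 and 160 downstream and 74 and 574 over exons. In the other direction, *Tert*, the catalytic subunit of telomerase, had 40 reads in ESCs and 6 in NPCs downstream, and 260 and 74 over exons. These 5 hosts were picked after their values were seen. The clusters of *Cdh6* and *Hs3st1* met the threshold of 10 pooled reads through NPCs alone, so their 0 downstream reads in ESCs are partly set by the choice.

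Some hosts departed from their exons. *Klf3*, a Krüppel-like transcription factor, had 9 clusters with 29 reads in ESCs and 166 in NPCs, but 113 and 181 over exons, a quotient of 3.57 (2.22 to 5.87). *Klf9*, of the same family, had 117 and 194 downstream and 669 and 475 over exons, a quotient of 2.34 (1.79 to 3.05). *Cyhr1* had 2 reads in ESCs and 29 in NPCs downstream, with 199 and 200 over exons. *Ptch1*, the Hedgehog receptor, had 16 and 19 downstream against 329 and 103 over exons. In the opposite sense, the quotient was 0.497 (0.400 to 0.620) at *Soat1*, which esterifies cholesterol, with 195 and 315 downstream and 372 and 1208 over exons. Reads were stacked in some clusters of *Soat1*, with 90.8% at 1 start position at 1387 nt and 61.1% at 2730 nt. They were less so in others, with 15.6% at 3007 nt. The interval counts stacked reads as independent, so it is too narrow where they are copies. *Smad2*, a signal transducer of activin, had 299 and 208 downstream and 254 and 454 over exons, a quotient of 0.389 (0.306 to 0.495). *Tomm20*, a mitochondrial import receptor, had 289 and 157 downstream in 12 clusters and 362 and 411 over exons, a quotient of 0.478 (0.373 to 0.613). Apart from *Soat1*, *Smad2* and *Tomm20*, which were among the hosts with the most single-copy reads, these hosts were picked for the size of the difference.

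The 10 hosts with more than 2-fold ratios in opposite directions had at most 31 downstream reads each. No host remained in this set when each start position was counted once per library, and 5 hosts were counted with unique reads alone. *Fkbp9*, a peptidyl-prolyl isomerase, had 13 reads in ESCs and 0 in NPCs at 333 nt, and 404 and 1196 over exons. *Srsf3*, a splicing factor, had 16 and 6 downstream and 618 and 1299 over exons. *Hist1h2bg*, *Hist1h3i*, *Arl5c* and *B230307C23Rik* were higher downstream in NPCs, and of these *Arl5c* had 25 downstream reads in a cluster of 7 nt, all of them clipped. At *Gm2004*, *Gm2007* and *EU599041* the exons held 4, 2 and 2 reads.

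Per length, read density was compared between the clusters and the exons of their hosts. Over the 440 hosts with exon reads, the median ratio of reads per kb of cluster to reads per kb of exon was 1.43, with quartiles of 0.70 and 3.10. The medians were 1.28 in ESCs and 1.40 in NPCs. Clusters hold only bases covered by reads, while the exon length includes bases without reads, so the choice of clusters favours a ratio above 1. With gaps of up to 40 bases joined, the median was 1.05. Over the whole stretch from the annotated end to the far end of the last cluster, gaps included, the median was 0.69. More reads lay downstream than over exons at 83 hosts, of which 37 had only single-copy clusters, 37 only multi-copy clusters and 9 both. These 83 include the 20 hosts with no exon reads, and the count was 53 with each start position counted once per library and 48 with unique reads alone. Genes with more exon reads were hosts more often, with 0.650% of genes with 1 to 9 exon reads, 1.31% with 10 to 99, 4.07% with at least 100 but under 1000, and 6.84% with 1000 or more.

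The stretch beyond a host was seldom covered without breaks. Clusters numbered 1 at 201 hosts, 2 to 4 at 163 and at least 5 at 96. Reads of any number covered a median of 59.3% of the stretch, and the longest gap had a median of 182 nt. A clipped read formed the 5′ or 3′ edge of 254 clusters (17.9%). Reads in repeats had been filtered out by the study, and the part of this filter in the gaps and edges was not tested.

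The gene lists were described by how many of their genes were hosts, against 2.06% of all protein-coding genes and 4.07% to 6.84% of those with at least 100 exon reads. Counts of clusters more than 2-fold apart are set against 29.3% of all clusters towards NPCs and 10.7% towards ESCs. Of 20 pluripotency genes, 2 were hosts, with 7 clusters, and besides *Klf5* this was *Zfp42*, the marker also called Rex1. Its clusters at 542 and 358 nt held 47 and 22 reads in ESCs and 8 and 14 in NPCs, against 707 and 289 over exons. Together the *Zfp42* clusters were 3.23-fold higher in ESCs (1.97 to 5.48) and the exons 2.52-fold (2.19 to 2.90). By library totals *Klf5* was higher in NPCs in both. Its exon log2 ratio of 0.30 was below the median of 0.40 over all protein-coding genes with at least 10 exon reads. By count, 1 of the 7 pluripotency clusters was more than 2-fold higher in NPCs and 1 in ESCs.

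Of 67 replication-dependent histone genes, 8 were hosts, with 10 clusters that held 51 reads in ESCs and 65 in NPCs. Over exons, 40 of the 66 histone genes with at least 10 reads were more than 2-fold higher in ESCs and 0 in NPCs, against 11.6% and 26.2% of all genes. Of the 10 clusters, 1 was more than 2-fold higher in ESCs and 3 in NPCs, against 10.7% and 29.3% of all clusters. The 1 towards ESCs, beyond *Hist1h4c*, had another gene between it and its host. The 3 towards NPCs, of 10, 11 and 15 reads, lay beyond *Hist1h2bg* and *Hist1h3i*. In all, 6 clusters began within 100 nt of the annotated end, and 1 was multi-copy. *Hist1h2bg* had 8 reads in ESCs and 23 in NPCs in 3 clusters, against 4397 and 1403 over its exons, a quotient of 9.01 (3.88 to 23.3). *Hist1h3i* had 3 and 12 reads at 5 nt, against 1168 and 453 over exons, a quotient of 10.3 (2.76 to 57.1). *Hist4h4* had 8 and 5 reads in a cluster that began 1 nt beyond the gene.

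Ribosomal protein genes gave 11 hosts of 84, with 19 clusters, 184 reads in ESCs and 129 in NPCs. Of these clusters 4 were more than 2-fold higher in ESCs and 0 in NPCs, against 10.7% and 29.3% of all clusters. Of the 4, 3 lay beyond *Rps20*, and the other, beyond *Rpl37*, had another gene between it and its host. For the 19 clusters the median log2 ratio was -0.53, with an exon median of -0.54 over the list. *Rps20*, a protein of the small ribosomal subunit, had 4 clusters with 59 reads in ESCs and 21 in NPCs. Its exons held 1443 and 1344, a quotient of 0.38 (0.22 to 0.64). The merged exons of *Rps20* were 4080 nt long. Its clusters were 0.40 times as dense in reads as all these exons and 4.93 times as dense as their last 1000 nt. The source of its exon reads was not tested. *Rps12* had 5 clusters with 48 and 44 reads and exons with 125 and 80. *Rps19* had 2 clusters with 24 and 21 reads and exons with 730 and 437.

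Genes with a same-strand snoRNA gene within their bounds, whether or not in an intron, gave 19 hosts of 269, with 65 clusters. Of these clusters, 12 were more than 2-fold higher in NPCs and 15 in ESCs, against 29.3% and 10.7% of all clusters. Clusters of 1 host are not independent, and *Tomm20* had 12 of the 65 and *Kif13b* 11. Over exons, 59 of the 233 genes of this list with at least 10 reads were more than 2-fold higher in NPCs and 23 in ESCs. The shares over all such protein-coding genes were 26.2% and 11.6%. Besides *Cct6a*, *Tmf1* and *Tomm20*, the hosts included *Ipo7*, a nuclear import receptor. Its 5 clusters reached 1434 nt with 224 reads in ESCs and 323 in NPCs, and its exons held 2189 and 2557. *Kif13b*, a kinesin, had 11 clusters with 108 and 87 reads, *Srcap*, a chromatin remodeller, had 5 with 16 and 57, and *Mgat5*, a glycosyltransferase, had 6 with 31 and 65. *Pawr*, an apoptosis regulator, had 2 clusters with 10 and 27 reads. *Alkbh8*, a tRNA methyltransferase, had 2 with 12 and 22, and the larger of them had all reads at 1 start position. *Zfp808* had 2 clusters with 25 and 17 reads, both multi-copy.

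The factors of 3′ end processing had 0 of 25 genes more than 2-fold apart over exons in either direction, against 26.2% of all genes towards NPCs and 11.6% towards ESCs. *Pabpn1*, the nuclear poly(A)-binding protein, and *Nudt21*, a subunit of the cleavage factor that governs the choice of poly(A) site, were themselves hosts. *Pabpn1* had 1 cluster at 28 nt with 70 reads in ESCs and 54 in NPCs, and exons with 271 and 240. *Nudt21* had 3 clusters with 22 and 16 reads, and exons with 58 in each library. *Xrn2*, the exonuclease of termination, had 230 exon reads in ESCs and 336 in NPCs, a ratio of 1.42 (1.196 to 1.685). Its log2 ratio was 0.50, beside a median of 0.40 over all protein-coding genes. *Cpsf1*, a subunit of the cleavage complex, was the other way, with 670 and 451, a ratio of 0.65 (0.58 to 0.74).

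Some clusters could not be assigned to 1 place in the genome. In 197 clusters at 108 hosts, fewer than 50% of the reads had a sequence found once in mm9. Of the reads in these multi-copy clusters, 80.1% also matched a protein-coding transcript exactly, and in 136 clusters the majority did. They held 6158 reads in ESCs and 6360 in NPCs, and since 1 placement was kept per read, their origin among the copies cannot be told apart. Without them, 1224 clusters at 375 hosts remained, with 15613 reads in ESCs (0.366%) and 22624 in NPCs (0.514%). These still include the *Gm10925* cluster described below, single-copy by the definition used, with 924 reads in ESCs and 2102 in NPCs.

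The reads behind some of the largest multi-copy clusters, and behind the *Gm10925* cluster, are shown by 30 nt from the most used start position. The bases are from mm9, 5′ to 3′ on the strand of the cluster, with no capitals as no base is singled out.
Gm3776, cluster at 3596 nt, chr9:78120613-78120642, plus strand: gtgctgaagctggaggaatccatgaagacc
Psmd2, cluster at 1347 nt, chr16:20664835-20664864, plus strand: ttgcaacctcatcactgggatgtttcagcg
Eif2ak2, cluster at 513 nt, chr17:79251343-79251372, minus strand: aagggctccttcaagtacgcctgggtctta
Gm10925, cluster at 846 nt, chr1:24619928-24619957, minus strand: tcaacctgtacactgttatcttcattaata
Gm10222, cluster at 360 nt, chr1:24618809-24618838, minus strand: aaccaaactgaacgcctaaacgcagggatt

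Of the reads of the cluster at 4392 nt beyond *Pfn4*, a profilin gene, 560 in ESCs and 372 in NPCs, 98.4% matched the transcript of *Tuba1b*, an alpha-tubulin. At *Ddx4*, the germ cell helicase also called Vasa, the cluster at 3454 nt held 233 and 207 reads, of which 89.8% matched *Tuba1b*. The exons of *Pfn4* held 3 reads in ESCs and 1 in NPCs, so that its 398.3 downstream reads per exon read rest on 4 exon reads and on multi-copy clusters. The other hosts at the top of that ratio, *Gm3776*, *Tm4sf19*, *Mlkl* and *Gm10351*, had 1, 1, 2 and 2 exon reads.

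*Gm3776* had 425 reads in ESCs and 139 in NPCs in the cluster at 3596 nt, of which 99.1% matched *Dppa5a*, a pluripotency-associated gene. The reads beyond *Psmd2*, a proteasome subunit, 307 and 157, matched *Eef1g* in 98.5%, and those beyond *Eif2ak2*, the kinase PKR, 297 and 150, matched *Eef1a1* in 98.4%. Both matched genes encode translation elongation factors. Those beyond *Gm10608*, 191 and 257 in the cluster at 1704 nt, matched *Ywhaq*, a 14-3-3 protein, in 98.4%, and those beyond *Gm17624*, 112 and 40, matched *Gm10076* in 92.8%.

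The cluster with the most reads of all lay beyond *Gm10925*, with 924 reads in ESCs and 2102 in NPCs, a ratio of 2.21 (2.04 to 2.39). Of these reads, 84.5% began at a single position, and the 48 nt most often read there differed from the mitochondrial genome at 1 base at the best match. The nearby cluster beyond *Gm10222*, with 58 reads in ESCs and 296 in NPCs, matched mitochondrial *mt-Nd4* exactly in 98.6% of its reads. Reads placed on the mitochondrial chromosome had been removed from the files, so these are reads placed on nuclear copies of it. Without the *Gm10925* cluster the share of the library in downstream clusters was 0.488% in ESCs and 0.611% in NPCs.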

How the data were processed

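NPA RNA of R1 ESCs and ESC-derived NPCs was sequenced on a SOLiD 3 instrument, 1 library each. The deposited files give position, strand and 48 nt of sequence of each read. Per the labels and the methods of the study, the authors aligned reads with Bowtie to mm9, kept 1 placement for a read with several, and removed mitochondrial, ribosomal and repeat reads. All counts were made here from these read positions with Python 3.11.15, NumPy 2.4.6, pandas 2.3.3 and SciPy 1.17.1, using GENCODE M1 and the mm9 genome.

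The members and lists were chosen with earlier results of these data known. For exons, same-strand reads sharing a base or more with the merged exons were counted. A read was called unique when its 48 nt occurred exactly once on either strand of mm9, which held for 78.2% of reads in ESCs and 83.2% in NPCs; 4.19% and 3.98% had no exact match and count as not unique. Log2 ratios were scaled by library totals with 1 read added per library, while single ratios add none. Intervals are exact 95% intervals (Clopper-Pearson for shares, conditional binomial for ratios, conditional odds ratio for quotients), and cover counting error only, since reads carry no molecular identifiers. Counting was tested on simulated reads. Of the marker names, *Tfcp2l1* and *Sox1* had no gene model of that name, and 1 endoderm name had 2 models. Genes were named by a rule: the 10 clusters with the most reads, the 5 with the highest ratio each way among those with at least 50 reads in a library, the 5 hosts with the highest downstream to exon ratio, the 5 clusters with the most reads within 500 nt, and clusters with at least 20 reads at hosts in the lists. Hosts with the most single-copy reads and those with the largest differences from their exons were added after their values were seen. Some genes and sequences that met the rule are not reported here.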

Additional observations from a re-analysis of the deposited data

How the results depend on the processing

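No paired analysis was possible because each cell type had 1 library, which also leaves no replicate to leave out. Of 91 values recomputed under alternatives, 48 kept within their interval or within 1.5 times the main count, and 43 moved. Only the median log2 ratio could change sign, and under no alternative did it. Some values could not move, such as the 424 clusters within 500 nt under a window of 1000 nt. Counting each start position once per library gave 851 clusters, 254 of them within 500 nt, 119 and 94 more than 2-fold higher in NPCs and ESCs, a median log2 ratio of 0.018, 27 hosts apart in the same and 0 in opposite directions, 53 with more downstream than exon reads, and library shares of 0.556% and 0.559%. Of all clusters, 11.6% were then over 2-fold higher in NPCs. Unique reads alone gave shares of 0.444% and 0.583%, a median of 0.35, and 5 opposite and 48 downstream-rich hosts. At least 50 reads gave 198 clusters, 64 within 500 nt, 46 and 16 more than 2-fold apart, 15 and 0 hosts, 24 downstream-rich hosts, a distance of 887.5 nt, a density ratio of 1.72, and shares of 0.278% and 0.350%. A window of 1000 nt gave 698 clusters, 218 and 74 more than 2-fold apart, 46 downstream-rich hosts, a distance of 398.5 nt, and shares of 0.258% and 0.365%, as fewer clusters could enter. Joined gaps gave a density ratio of 1.05 and shares of 0.470% and 0.590%. Same-strand genes alone gave shares of 0.545% and 0.702%. Scaling by the median of ratios or by totals without the 10 largest clusters gave medians of 0.19 and 0.34. Chosen after seeing the data, the density over the whole stretch was 0.69, and shares without *Gm10925* were 0.488% and 0.611%. The cause of these moves was not tested, other than where the construction removes clusters. Depth limits single clusters, since 772 of 1421 had 10 to 19 reads.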
